A study of Saccharomyces cerevisiae with 4 samples.

Results

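The genes described here are those whose intensity on the Ssa4 array was less than 0.5 times that on each of the Ssa1, Ssa2 and Ssa3 arrays. Of 5771 features with a value on all 4 arrays 120 met this rule, and 111 of them are described, since ADH2, PUT4, ATO3, ARO9, YOX1, SCJ1, ZPS1, YOR387C and YGL258W were left out by name. The members were chosen by the same intensities that are reported, so the size of the Ssa4 difference is a description and supports nothing by itself. Of the 111 members, 58 had at least 100 on the other 3 arrays and 53 were below 100 on at least 1 of them. Names come from the study's own gene lists by matching all 4 intensities, and 110 of the 111 members have one.

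All 4 strains derive from G402, in which SSA1, SSA2, SSA3 and SSA4 are deleted and 1 of the 4 Ssa proteins is supplied from a plasmid. Each is therefore a strain that lacks 3 of the cytosolic Hsp70-Ssa proteins, and Ssa1 served as the reference. The plasmid copy was under the constitutive SSA2 promoter, so the heat-inducible Ssa3 and Ssa4 were expressed outside their natural regulation. The strains were [psi-], without the prion form of Sup35, and shared the mutations his3, leu2, trp1, ura3, lys2, kar1-1 and ade2-1 and the suppressor SUQ5. Cultures were grown at 30°C without heat shock, to exponential phase in the sample labels and overnight in the methods.

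Each strain has 1 array, hybridized with Cy5-labelled RNA pooled from 8 extractions according to the deposited description, whereas the methods give 3 replicates from each of 2 experiments. There are no replicate arrays, so no ratio has an error and no test was made, and the number of arrays limits the precision. The study also measured selected genes by RT-qPCR with replicates, among them the member TOS6, and those values were not analysed here. All values below are deposited intensities, background-subtracted and scaled to the array median, and sets of 4 values are in the order Ssa1, Ssa2, Ssa3 and Ssa4. The array medians lay between 200.4 and 201.5. An intensity depends on the oligonucleotide of the spot, so levels are compared between arrays for the same gene and not between genes. The 3 ratios behind the rule share the Ssa4 value of each spot, and an error in it would enter all of them. In a culture, less RNA per cell and fewer cells that express a gene cannot be told apart. The SSA2 spot, which checks the labels, read 2505 on the Ssa2 array and between 1.21 and 9.01 on the others.

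Ssa proteins are the cytosolic Hsp70 chaperones of budding yeast. They bind exposed hydrophobic stretches of unfolded proteins, work with J-domain partners and nucleotide exchange factors, and hold the heat shock transcription factor Hsf1 inactive in unstressed cells. Yeast that grows on glucose represses the genes for the glyoxylate cycle, gluconeogenesis and acetate use, and these genes are switched on when glucose runs out. Genes of the cell wall, of DNA synthesis and of ribosomes are expressed most strongly in cells that grow and bud.

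The rule picked 2.08% of the features with 4 values, and 64 of the 3633 features of at least 100 on the other 3 arrays, or 1.76%. Applied in the same way to the other arrays, it gave 38 features lower on the Ssa1 array than on all others, 21 on the Ssa2 array and 32 on the Ssa3 array. Over the 111 members the median log2 ratio of Ssa4 to the median of the other 3 arrays was -1.49, against 0.01 over all features. The ratio of the lowest other array to Ssa4 was between 2 and 2.5 for 69 members, between 2.5 and 3 for 23, between 3 and 4 for 15 and above 4 for 4. These 4 were TOS6 at 4.87, RFC1 at 4.79, SIM1 at 4.32 and UTH1 at 4.05. The members just inside the threshold were CDA2, NTR2, MMS21, TOS1 and ERG6, at 2.0003 to 2.014. DOG2, ACS2, YGK1, RLI1 and YMR244W lay just outside it, at 1.9992 down to 1.9866, and 56 features had ratios between 1.8 and 2. The values thus ran on across the threshold without a gap.

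**Figure D1:**
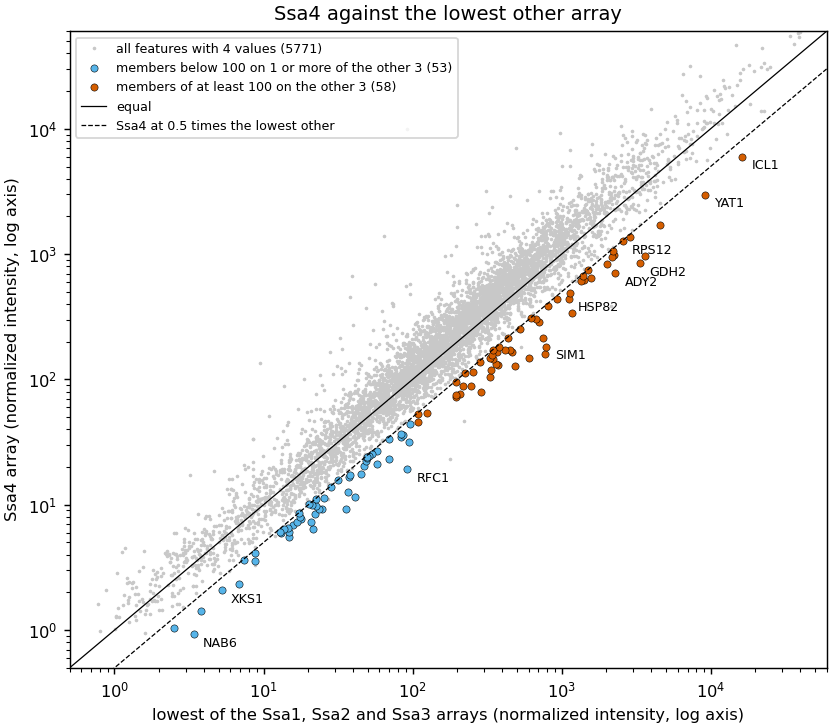
Intensity of each feature on the Ssa4 array (vertical, log axis) against its lowest intensity on the Ssa1, Ssa2 and Ssa3 arrays (horizontal, log axis). The 58 members of at least 100 (orange) and the 53 lower ones (blue) lie below the dashed line at 0.5 times, and the grey points below that line are the 9 genes left out by name. ICL1 lies at 5998 on the Ssa4 array.

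The 15 members that serve growth on acetate, ethanol and other non-fermentable carbon were the largest group of members with a common function, and all 15 had at least 100 on the other 3 arrays. Their Ssa1 values were 2.62 to 8.11 times those of Ssa4, with a median of 4.99 times, against a median of 3.02 times over all members. ICL1 encodes isocitrate lyase, the first enzyme particular to the glyoxylate cycle, and read 26197, 20566, 16310.4 and 5998. The Ssa4 value of ICL1 was 2.72 times below the lowest of the other 3. MLS1, for malate synthase, the next step of that cycle, read 616, 289.6, 373 and 79.9. The MLS1 value on the Ssa1 array was 7.7 times that on the Ssa4 array.

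Genes for mitochondrial carriers of dicarboxylic acids were also among the members. SFC1, for the succinate-fumarate carrier of the inner membrane, read 4909, 3617, 4281 and 969.7. ODC1, for the 2-oxodicarboxylate carrier, read 3576, 2894, 3022 and 1366, the smallest difference from Ssa1 in this group. Acetate enters the cell and is activated through the products of 2 other members. ADY2, for an acetate transporter of the plasma membrane, read 5699.7, 3027, 2299 and 703 and had the largest ratio of Ssa1 to Ssa4 of all members, 8.11. ACS1, for the acetyl-CoA synthetase used on non-fermentable carbon, read 758, 467, 662 and 166. ACS2, for the synthetase that is used on glucose, was just outside the threshold with 701, 495, 699 and 248. ACH1, whose mitochondrial product moves coenzyme A between acetate and succinate, read 373, 196, 306 and 74.8.

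Acetyl units cross membranes as acetyl-carnitine, and 3 genes of this shuttle were members. YAT1 and YAT2 encode carnitine acetyltransferases and CRC1 the carnitine carrier of mitochondria. YAT1 read 12021, 9134, 11248 and 2975. YAT2 read 1446, 746, 1018 and 214. CRC1 read 2274, 1392, 1517 and 663. The YAT1 values on the Ssa1 and Ssa3 arrays were close together, whereas YAT2 and CRC1 were lower on Ssa2 and Ssa3 than on Ssa1. CIT3 and PDH1, the mitochondrial citrate or methylcitrate synthase and the methylcitrate dehydratase of propionate breakdown, are adjacent genes on chromosome XVI. CIT3 read 874, 372, 707 and 132. PDH1 read 875, 489, 575 and 127. The Ssa1 values of this pair were 6.65 and 6.89 times the Ssa4 values, and the Ssa2 values of CIT3 and PDH1 were 0.425 and 0.559 times the Ssa1 values. SIP4, a zinc cluster activator of gluconeogenic genes, read 633, 448, 617 and 173. YGR067C, which encodes a zinc finger protein related to the activator Adr1, read 376, 208, 315 and 76.7. RGI2, whose product is involved in energy metabolism under respiratory conditions, read 3101, 1788, 1347 and 607.

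The Ssa1, Ssa2 and Ssa3 arrays were not alike for these 15 genes, and this order was not fixed by the rule. Among these 3 the Ssa1 array was the highest for 15 of 15, against 15 of the 43 other members of at least 100. It was the highest for 21.1% of the 3633 features of at least 100 on these 3 arrays. For 12 of 15 Ssa3 came next and Ssa2 was the lowest of the 3, and for ICL1, ADY2 and RGI2 Ssa2 was above Ssa3. The order Ssa1, Ssa3, Ssa2 was found for 4 of the 43 other members of at least 100 and for 10.3% of the 3633 features. The median ratio to Ssa1 was 0.577 for Ssa2 and 0.808 for Ssa3. Over the 43 other members of at least 100 these medians were 0.998 and 0.945. On the Ssa2 array MLS1 and CIT3 were also below 0.5 times Ssa1, at 0.47 and 0.425, and on the Ssa3 array ADY2 and RGI2, at 0.403 and 0.434. With 1 array per strain the differences among Ssa1, Ssa2 and Ssa3 have no error. The ratios to Ssa1 also share the Ssa1 value of each spot.

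**Figure D2:**
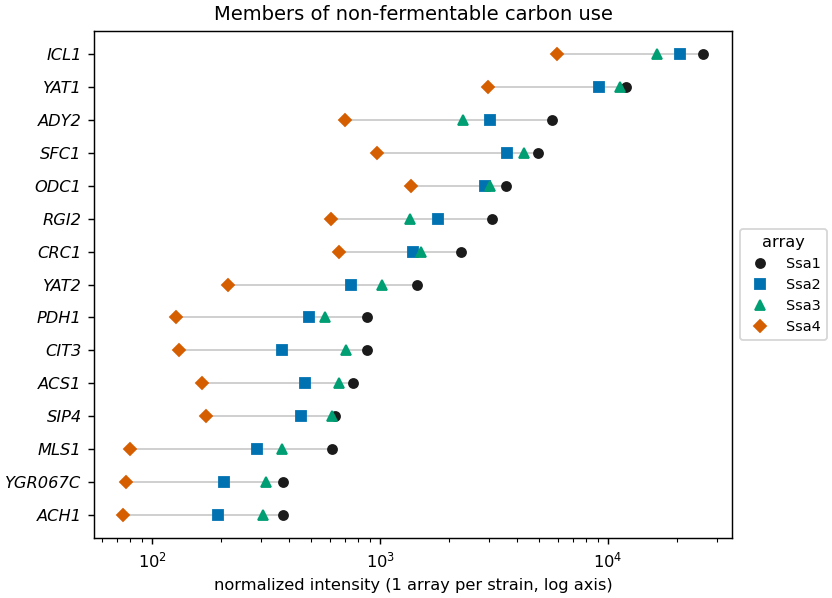
Normalized intensity (log axis) of the 15 members of non-fermentable carbon use on the Ssa1 (circle), Ssa2 (square), Ssa3 (triangle) and Ssa4 (diamond) arrays, 1 array per strain, sorted by the Ssa1 value. The circle is rightmost and the diamond leftmost in 15 of 15 genes, with the Ssa2 and Ssa3 values between them.

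Named genes of the same pathways that were not members show where the rule stopped. The list of glyoxylate cycle and gluconeogenesis genes holds 16, of which 9 had a name. Of these, 9 of 9 were below 0.5 times Ssa1 on the Ssa4 array, 6 of them as members. Over all 5776 features with a value on both arrays 7.10% were below 0.5 times, but among the 946 of these with a name it was 43.2%, since the study listed genes for their change. List counts are therefore a description and are not a sample of each pathway. Of the 410 features below 0.5 times 409 had a name, so almost no list gene without a name was measured below that. FBP1, for fructose-1,6-bisphosphatase, read 5570.3, 4596, 4611 and 2537, and MDH2, for cytosolic malate dehydrogenase, read 8086, 4812, 7239.8 and 3732. For neither gene was the Ssa2 or the Ssa3 value more than 2 times the Ssa4 value. ACO1, for aconitase, read 4466, 1396, 4425 and 2193, so that it was lowest on the Ssa2 array. Of the 12 genes of the carnitine, acetate and propionate list 7 had a name. These 7 were all members, against 110 of the 947 named features. Of the 13 genes of the peroxisomal beta-oxidation list 4 had a name and none was a member. CTA1, for peroxisomal catalase, read 302, 103, 237 and 93.1, and POX1, for acyl-CoA oxidase, read 264, 139.6, 238 and 91.9. Their Ssa2 values were 1.1 and 1.52 times the Ssa4 values. FAA2, for an acyl-CoA synthetase, read 1329, 707, 551 and 699.6 and PXA1, for a subunit of the peroxisomal fatty acid transporter, read 234, 133, 136 and 109. The Ssa2, Ssa3 and Ssa4 values of FAA2 and PXA1 were 0.414 to 0.581 times those of Ssa1.

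Cell wall and protein mannosylation genes gave 12 members, 9 of them of at least 100. The median ratios to Ssa1 were 1.07 for Ssa2 and 1.01 for Ssa3, with single genes on either side of 1. For 7 of the 12 genes the Ssa1, Ssa2 and Ssa3 values were within 1.5 times of each other, or 58.3%, against 65.1% of all features. SIM1 and UTH1 belong to the SUN family of secreted or wall-bound proteins. SIM1 read 1204, 1075, 785 and 182, the highest ratio of Ssa1 to Ssa4 among the wall genes of at least 100, 6.62. UTH1 read 603, 645, 918 and 149. TOS6, for a wall protein with a GPI anchor, read 772, 1069.9, 854 and 159 and had the largest distance from the lowest other array of all members. GAS1, for the main glucanosyltransferase that elongates beta-1,3-glucan, read 873, 1157, 703 and 286. Its relative GAS3 read 85.8, 92.3, 120.5 and 36. FKS1, for the catalytic subunit of beta-1,3-glucan synthase, read 807, 861, 1019.6 and 383. The features next to FKS1 on a spot grid inferred from the feature identifiers were also lower on the Ssa4 array, with a median log2 difference of -0.62, and with that median subtracted the ratio was 1.31. SCW4, for a protein related to glucanases, read 2634, 2773, 2178 and 951. PRY2, for a secreted sterol-binding protein, read 2098, 2241, 2014 and 828. TOS1, a wall protein gene at the edge of the rule, read 1502, 1850.0, 1496 and 744.

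Mannosylation was represented by OCH1, for the mannosyltransferase that starts the outer chain of N-glycans, and PMT2, for an O-mannosyltransferase. OCH1 read 434, 284, 497 and 138. PMT2 read 60, 50.9, 61.3 and 24.3. CDA2, for a chitin deacetylase of the spore wall, read 122, 49.8, 31.7 and 15.8 and differed from the others, since it was low on the Ssa2 and Ssa3 arrays as well. Its relative CDA1 read 193, 106, 81.5 and 98.4 and was no member. Of the 62 genes of the wall list 20 had a usable name. Of these 20, 13 were below 0.5 times Ssa1 on the Ssa4 array, against 43.2% of all named features. Of the 13, 10 were members. SPI1, for a wall protein induced under stress, was the 1 list gene above 2 times, with 6534, 9407, 9904 and 27248. UTR2, for a chitin transglycosylase, read 103, 179, 25.9 and 36 and was low on the Ssa3 array too.

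A group of 5 members serves phosphate uptake and release and the transport of ions and water, apart from the carriers given with other groups. PHO89, for a phosphate and sodium cotransporter, read 1927, 1987, 1177 and 338, with Ssa3 between Ssa1 and Ssa4. PHO3, for a constitutive acid phosphatase, read 71.7, 59.3, 47.4 and 20.5. Its neighbour PHO5, for the acid phosphatase that is induced when phosphate is short, read 497, 323, 216 and 111 and missed the rule because its Ssa3 value was 1.94 times the Ssa4 value. PMA1, for the proton pump of the plasma membrane, read 562, 524, 688 and 250.4. SMF2, for a manganese transporter, read 302, 410.2, 256 and 115, and AQY2, for an aquaporin, read 125, 178, 128 and 54.2. For PHO89, SMF2 and AQY2 the Ssa2 array was the highest of the 4.

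In amino acid metabolism 5 genes were members. The largest distance from the lowest other array was that of GDH2, for the NAD-dependent glutamate dehydrogenase that releases ammonium from glutamate. It read 3619, 3409, 3384 and 847, so that the first 3 arrays lay within a narrow range and Ssa4 was 3.996 times below the lowest of them. ARO10, for a decarboxylase in the breakdown of aromatic and branched amino acids, read 3493, 2464, 2244 and 978. ARG1, for argininosuccinate synthetase, read 1326, 1138, 1227 and 493, and LYS12, for homo-isocitrate dehydrogenase of lysine synthesis, read 390.3, 343, 575 and 156. CPS1, for a vacuolar carboxypeptidase, read 35.5, 20.8, 43.5 and 7.32. Of the 36 genes of the nitrogen and arginine list 13 had a name. Of these 13, 9 were below 0.5 times Ssa1 on the Ssa4 array, against 43.2% of all named features. Of the 9, 4 were members. DAL2, for allantoicase, and PUT1, for proline oxidase, were low on the Ssa2, Ssa3 and Ssa4 arrays alike, at 930.1, 470.2, 477 and 457 and at 228, 122, 116 and 93.4. ARG4, for the enzyme after Arg1, read 259, 149.9, 218 and 98.7. DAL4, for an allantoin transporter, had the highest ratio of Ssa4 to Ssa1 of the named genes of this list, with 124, 113, 126 and 248.

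Purine salvage and GTP synthesis gave 5 members. PNP1, for purine nucleoside phosphorylase, read 328, 411, 339 and 104. ADK2, for the adenylate kinase of the mitochondrial matrix, read 114, 113, 109 and 45.4. APT1, for adenine phosphoribosyltransferase, read 251, 254, 196 and 72.9. The features near APT1 on the inferred grid had a median log2 difference of -1.35 on the Ssa4 array, and with it subtracted the ratio to the lowest other array was 1.12. IMD1 and IMD3 belong to the gene family of IMP dehydrogenase, the step that leads to GTP. IMD3 read 106, 53.5, 168 and 25.2 and IMD1 56.4, 49.6, 59.1 and 24.2. The signal of other genes of the family on these spots cannot be told apart here. AAH1, for adenine deaminase, was below 0.5 times Ssa1 without being a member, at 109, 147, 72.5 and 49.9. All members of this group apart from IMD3 had Ssa1, Ssa2 and Ssa3 values within 1.5 times of each other.

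**Figure D3:**
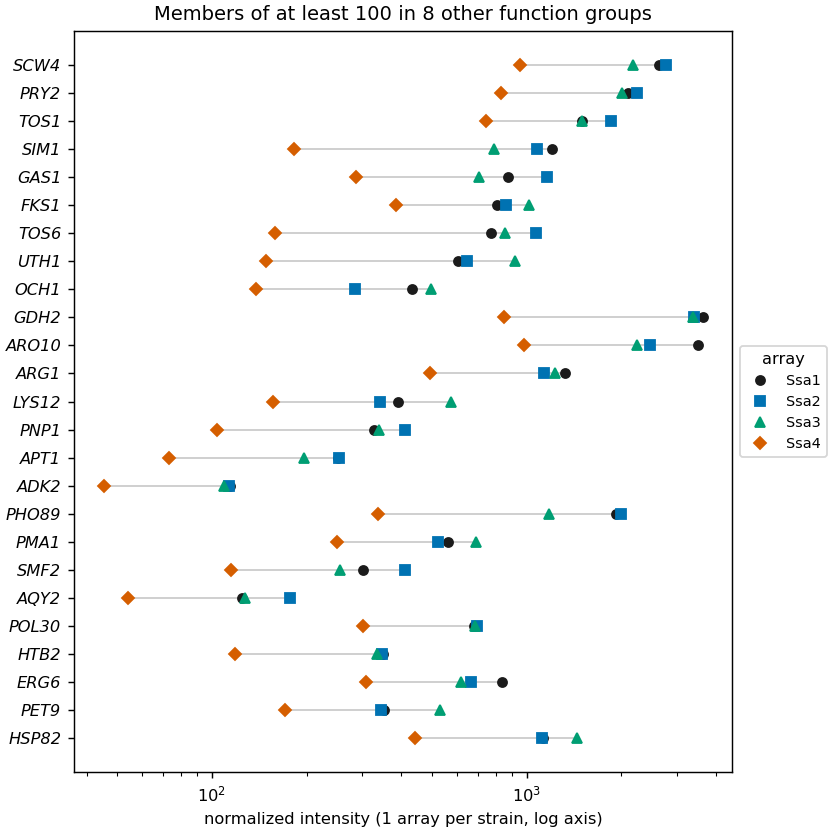
Normalized intensity (log axis) of the 25 members of at least 100 from 8 other function groups on the 4 arrays, 1 array per strain, with symbols by array. The diamond of Ssa4 is apart on the left, and the Ssa1, Ssa2 and Ssa3 symbols overlap for some genes, for example for GDH2, ADK2, HTB2 and POL30.

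Of the ribosomal protein genes 7 were members. RPS12 read 2587, 2671, 2715 and 1266 and RPL7A 446, 496, 363 and 133. A further 4, RPS4A, RPS24A, RPL6B and RPL23B, lay between 14.5 and 63.98 on the Ssa1, Ssa2 and Ssa3 arrays and between 6.55 and 23.6 on the Ssa4 array. For 7 of 7 the Ssa1, Ssa2 and Ssa3 values were within 1.5 times of each other. Of the 138 genes of the ribosomal protein list 31 had a usable name. Of these 31, 24 were below 0.5 times Ssa1 on the Ssa4 array, against 43.2% of all named features. The other 17 of the 24 were no members because their Ssa2 or Ssa3 value was at most 2 times the Ssa4 value, in part by little. RPS7A, for example, read 3578, 3476, 3366 and 1737, and RPS23B 1327, 969.8, 1226 and 520.3. The study listed the 31 genes for their change, so their median ratios do not describe the whole list. The median ratio to Ssa1 over the 31 genes was 0.464 for Ssa4, 0.841 for Ssa2 and 0.949 for Ssa3. Both copies of the gene pair RPL27A and RPL27B were above 2 times Ssa1, at 2203, 4218, 6120.4 and 6094 and 325, 980.0, 992 and 2123. RPP0, for the base of the ribosomal stalk, read 1398, 2051, 2899.6 and 896, high on the Ssa3 array and lowest on the Ssa4 array. Many ribosomal proteins are encoded by a pair of near-identical genes, and a spot may read both copies.

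Genes of the cell cycle, DNA synthesis and repair gave 14 members, but 12 of them were below 100 on at least 1 of the other arrays. The exceptions were POL30, for the sliding clamp PCNA, with 679, 693, 688 and 302, and HTB2, for histone H2B, with 350.0, 347, 334 and 119. The first 3 arrays differed by only a few percent for these genes. RFC1, for the large subunit of the clamp loader, read 124, 98.7, 92.2 and 19.3. Its neighbours on the inferred grid had a median log2 difference of -0.94, and the ratio stayed at 2.05 or above in all alternatives that gave 1 value per gene. TOS4, for a chromatin-bound regulator expressed at G1/S, read 26.9, 21.4, 28.8 and 6.39, and MBP1, for the DNA-binding part of the G1/S factor MBF, read 17.1, 13.6, 18.3 and 6.36. CLB4, for a B-type cyclin, read 26.7, 24.5, 32.1 and 9.3, and is the neighbour of PNP1 on chromosome XII. GIC1, for an effector of Cdc42, read 17.6, 15.6, 14.9 and 6.1, and BBP1, for a spindle pole body component, 28.6, 23.9, 23.6 and 9.31. MTW1, for a kinetochore protein, read 60.9, 66.2, 57.7 and 26.7. The repair genes OGG1, POL4 and MMS21 and the chromatin gene YTA7 lay between 2.52 and 39.1 on the first 3 arrays and between 1.05 and 10.1 on the Ssa4 array.

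Of the 42 genes of the G1/S and replication list 11 had a name. Of these 11, 8 were below 0.5 times Ssa1 on the Ssa4 array, against 43.2% of all named features. Of the 8, 4 were members. Only 6 of the 11 had at least 100 on the Ssa1 array, and 5 of these were below 0.5 times. RNR1, for ribonucleotide reductase, read 313, 351, 193 and 102 and missed the rule on the Ssa3 array. CLN2, for a G1 cyclin, read 229, 206, 338 and 109, and CDC21, for thymidylate synthase, 115, 108, 98.8 and 57.3. Of the 18 genes of the G2/M and M/G1 list 6 had a name. Of these 6, 5 were members, against 110 of the 947 named features. GIC2, the relative of GIC1, was the exception, with 124, 496, 438 and 147. Of the 10 genes of the histone list 3 had a name, and HTB2 was the only member. HHT1 and HHF1, for histones H3 and H4, were above 2 times Ssa1 on the Ssa4 array, at 3212, 4062, 5145 and 8135 and 238, 279, 423 and 571. The 3 histone genes thus did not go the same way.

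HSP82, for the heat-inducible form of the chaperone Hsp90, was the only member from the list of heat shock factor targets, with 1124, 1121, 1439.7 and 442. It was 2.54 times lower on the Ssa4 array than on the lowest other array, and the Ssa3 array was the highest. The heat shock list holds 28 genes, of which 9 had a name because the study listed genes for their change. The share of all features above 2 times Ssa1 was not calculated, so counts above it do not describe the list. Of the 8 other named genes of that list 7 were above 2 times Ssa1 on the Ssa4 array. Among them were CPR6, for a cyclophilin that works with Hsp90, with 3610.1, 4680.3, 3967 and 7756, and SSC1, for the mitochondrial Hsp70, with 2349, 3059, 3424 and 5185. MDJ1, for a J-domain partner of Ssc1, read 2266, 3806, 3845 and 5797, and HSP10, for the mitochondrial co-chaperonin, 2733, 4399.6, 3953 and 7783. SSE2, for an Hsp110-type exchange factor, read 5117, 5469, 7349.7 and 11315, and its relative SSE1 1514, 1729.5, 3204 and 3002. HSP30, for a stress protein of the plasma membrane, read 8503, 10989.6, 21057 and 26526, and CUP1-1, for metallothionein, 55.6, 90.1, 82.2 and 143. Each of these 8 genes had its lowest value on the Ssa1 array, whereas the lowest HSP82 value was on the Ssa4 array. The features near HSP82 on the inferred grid had a median log2 difference of -0.33, and the ratio was 2.05 or more in all alternatives that gave 1 value per gene. HSP82 has a near-identical constitutive relative, HSC82, which was not analysed here, and its part in the HSP82 signal was not tested.

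**Figure D4:**
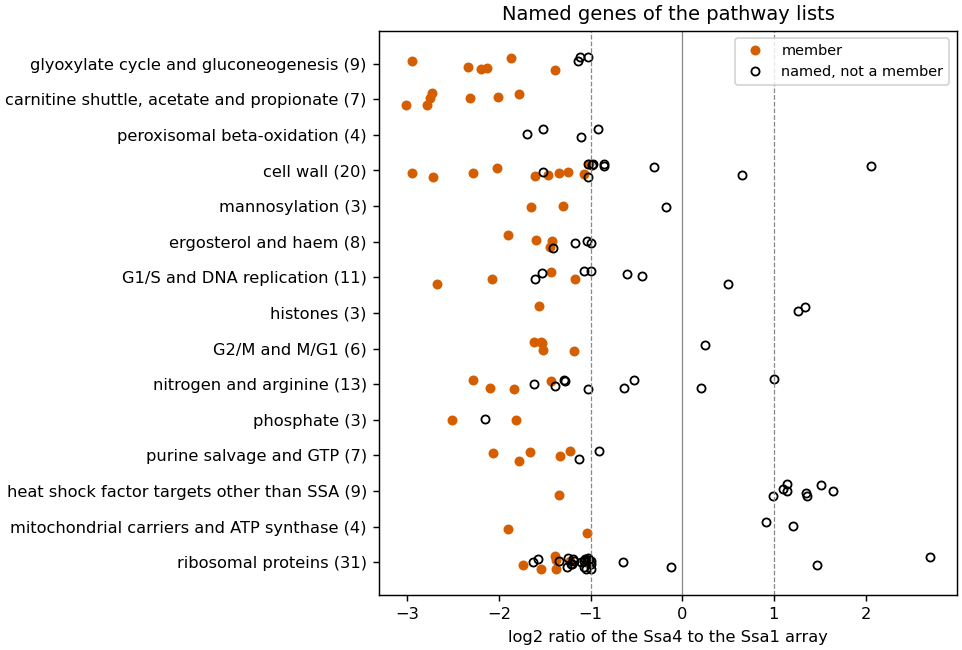
Log2 ratio of the Ssa4 to the Ssa1 array for the named genes of 15 lists, with members filled and other named genes open, the number named in brackets, and dashed lines at 2 times and 0.5 times. Members lie left of the lower line by the rule. The heat shock list has 1 gene there and 8 genes right of 0, and the ribosomal protein list has 2 genes beyond the upper line.

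Sterol and haem synthesis gave 4 members. ERG6, for a methyltransferase of ergosterol synthesis, read 835, 664, 620.2 and 308, and ERG25, for the C-4 methyl sterol oxidase, 164, 96.9, 118 and 43.8. HEM13, for coproporphyrinogen oxidase, read 106, 84.1, 106 and 35, and CYB5, for cytochrome b5, an electron donor in sterol synthesis, 90.8, 81.5, 69.1 and 33.8. The list of these genes holds 33, of which 8 had a name. All 8 named genes were below 0.5 times Ssa1 on the Ssa4 array, against 43.2% of all named features. ERG5 and ERG13 were no members and read 694, 434, 728 and 309 and 83.1, 60.4, 82.3 and 31.1, and MVD1, for a step of the mevalonate pathway, read 438, 515, 375 and 213.

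Mitochondrial genes outside carbon use gave 5 members. PET9, for the main ADP/ATP carrier, read 352, 345, 530.1 and 171. CCE1, for a cruciform-cutting enzyme of mitochondrial DNA, read 47, 47.1, 35.5 and 9.28, and ATP10, for an assembly factor of ATP synthase, 20.7, 14.8, 18.7 and 5.56. DMO1 read 62.2, 45.2, 62.1 and 17.7. AI3, encoded in an intron of COX1 on the mitochondrial genome, read 36.1, 22.6, 59.6 and 11.2. ATP11 and ATP14, for another assembly factor and a subunit of ATP synthase, read 404, 682, 714 and 931 and 2196, 4077, 4860.1 and 4127 and were higher on the Ssa4 than on the Ssa1 array.

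Among other metabolic genes NCE103, for carbonic anhydrase, read 4588, 4751, 5220.3 and 1695. REE1, which is involved in the regulation of enolase, read 1659, 1609, 1408 and 621, and TKL1, for the main transketolase of the pentose phosphate pathway, 399, 437, 333 and 148. XKS1, for xylulokinase, read 14.3, 5.27, 21 and 2.08, and was low on the Ssa2 array as well. BIO2, for biotin synthase, read 67.4, 40.4, 37.8 and 17.4, PAN6, for pantothenate synthase, 15.6, 15.6, 13 and 6.09, GTO3, for a glutathione transferase, 21.7, 21.2, 32.7 and 9.92, and TYW1, for a step of wybutosine synthesis in tRNA, 102, 83.1, 106 and 36.8.

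Of the members 7 were retrotransposon or subtelomeric open reading frames, which exist in many copies, so that a spot can read several of them. YBL101W-A, YCL020W and YOR343W-B are Ty open reading frames. YBL101W-A read 451, 392, 348 and 145 and YCL020W 446, 419, 369 and 165. YOR343W-B read 6.63, 4.56, 3.79 and 1.41. YBL111C, YEL075C and YHL049C are subtelomeric open reading frames with helicase-like relatives. YBL111C read 339.6, 217, 297 and 89.1, YEL075C 120.0, 128, 69.7 and 23.2 and YHL049C 53.2, 57.1, 28.3 and 13.9. YIR044C read 296, 246, 322 and 88.7. On the Ssa3 array YEL075C and YHL049C lay between the Ssa1 and the Ssa4 value.

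The remaining members of at least 100 have no function in common. YAR068W, of unknown function, read 2572, 4752, 931 and 435 and had the widest spread on the first 3 arrays in this group, with 1.85 times Ssa1 on the Ssa2 array and 0.362 times on the Ssa3 array. PRM4, a pheromone-regulated gene, read 494, 463, 416 and 172, ECM13 530.0, 441, 437 and 214, NTR2, for a factor that releases spliced introns, 314, 351, 224 and 112, and RTC4 197, 199, 207 and 94.5. The features near ECM13 and NTR2 on the inferred grid had median log2 differences of -0.70 and -0.62, and both ratios were below 2 with these subtracted. Of the members below 100 without a group, NAB6, for an RNA-binding protein, read 3.99, 3.45, 3.42 and 0.927, and CSI2, for a protein of unknown role at the bud neck, 61.4, 69, 41.3 and 11.6.

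Over all 111 members the Ssa1 array was the highest of the first 3 for 51, the Ssa2 array for 28 and the Ssa3 array for 32. These are 45.9%, 25.2% and 28.8%, against 28.1%, 29.5% and 42.4% of all features. Outside carbon use, 29 of the 43 members of at least 100 had Ssa1, Ssa2 and Ssa3 values within 1.5 times of each other, or 67.4%, against 70.5% of all features of at least 100. In the carbon group this was 4 of 15. Of all members 4 were also below 0.5 times Ssa1 on the Ssa2 array and 5 on the Ssa3 array, or 3.6% and 4.5%, against 2.37% and 1.94% of all features. No member was above 2 times Ssa1 on the Ssa2 or the Ssa3 array. The named members lie on 15 of the 16 nuclear chromosomes and 1 on the mitochondrial genome, and CIT3 with PDH1 and PNP1 with CLB4 were the only adjacent pairs.

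**Figure D5:**
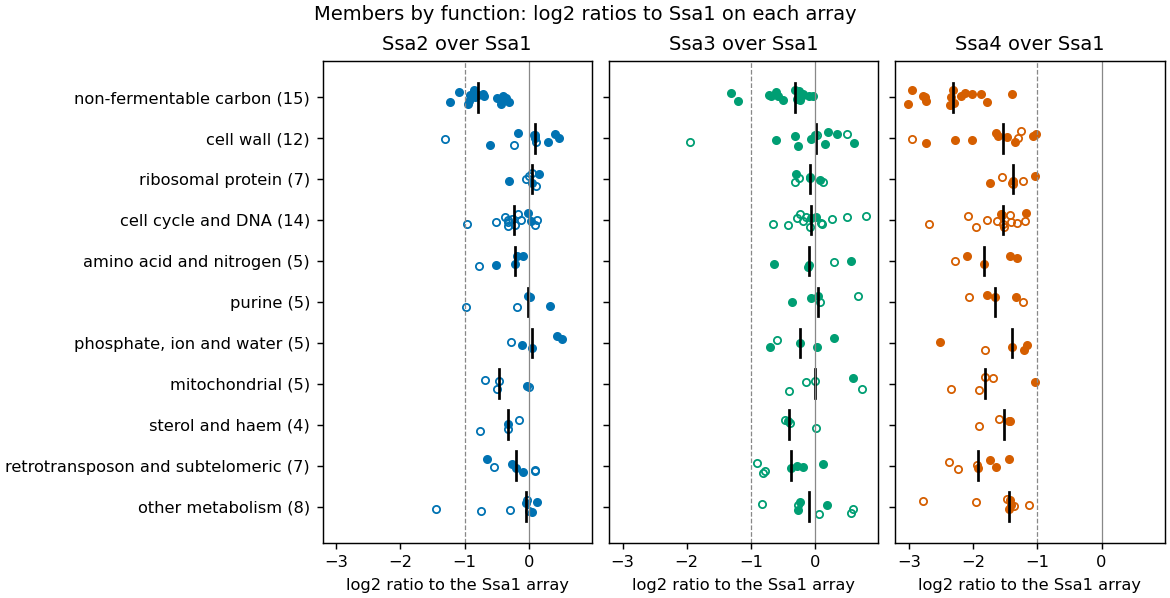
Log2 ratio to the Ssa1 array on the Ssa2, Ssa3 and Ssa4 arrays for members in 11 function groups, filled for members of at least 100 on the other 3 arrays and open for lower ones, with a black bar at the group median, a solid line at equality and a dashed line at 0.5 times. The carbon group has median log2 ratios of -0.79 on Ssa2 and -0.31 on Ssa3, and the cell wall group 0.09 and 0.01.

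Position on the array and low intensity moved with some of these values. Of 108 members with neighbours on the inferred grid 24 had neighbours with a median log2 difference of Ssa4 to the others below -0.3, or 22.2%, against 12.8% of all features. It was 20.0% in the carbon group, whose ratios stayed above 2 for 14 of 15 genes after subtraction of the neighbours. The exception was YGR067C at 1.78. An offset of 50 added to all values left 39 of the 58 members of at least 100 and 1 of the 53 lower members, RFC1, past the rule. With this offset a member whose lowest other value is 50 or less cannot pass, whatever its change. The median of that value over the 53 lower members was 23.6. The part of position or low intensity in each result was not tested.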

How the data were processed

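The data are 1 array for each of 4 strains (3D-Gene Yeast Oligo chip, Cy5, GenePix Pro 6.0). The authors read each spot as its median foreground intensity and discarded spots that did not exceed the background limit set by blank spots. The mean background was subtracted and each array was scaled by its median. The deposited intensities are linear, run from 0.744 to 59202, and were not normalized again. The Ssa1, Ssa2, Ssa3 and Ssa4 arrays have values for 5786, 5783, 5780 and 5776 of 5794 features. The genome build of the array design is not given in the sources used here, and no coordinates are printed.

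Features were named where all 4 intensities matched a row of the study's gene lists within a relative tolerance of 1e-05. All 956 rows used matched exactly 1 feature, and 0 did with the columns shifted. This names 947 features (16.3%), of which 936 are in the RefSeq R64 gene table, used for symbols and gene order. Lists were matched by symbol, leaving out features whose name in the study's lists conflicts with the R64 symbol. Features without a name in those lists were kept by their R64 symbol even where the description conflicts, as for TOS1 in the wall list.

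Members are features with more than 2 times the Ssa4 value on each other array, without offset or filter. The members, function groups and lists were chosen with earlier results of these data known. No test was possible with 1 array per strain. Genes named are all members of at least 100 on the other 3 arrays, lower members of a function group of 3 or more, the 5 members farthest from the lowest other array among the lower ones, the 5 features on either side of the threshold, and list genes of at least 100 on Ssa1 and below 0.5 times Ssa1. Of the genes this rule selects, 2 are not reported by name here. Other list genes were named after their values were seen.

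Alternatives were equal array medians, quantile normalization, a lowess curve against the mean log2 value (fraction 0.4), an offset of 50, a threshold of 3, missing values at the lowest value of the array, and subtraction of the median log2 value of neighbouring features. The neighbours lie 1, 12 and 13 positions away in 32 blocks that the feature identifiers imply, with at least 3 required. These distances were picked from the same values and are not independent of them. The counting was tested on simulated data. Python 3.11.15, numpy 2.4.6, pandas 2.3.3, statsmodels 0.14.6 and matplotlib 3.10.9 were used.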

Additional observations from a re-analysis of the deposited data

How the results depend on the processing

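The 111 members are 112 with equal array medians, 85 with quantile normalization, 100 with the lowess curve, 111 with missing values at the lowest value and 110 with the neighbour median subtracted, but 40 with an offset of 50 and 19 at a threshold of 3. Of the original members these settings kept 111, 78, 88, 111, 76, 40 and 19, so that 34 of the 110 after subtraction of the neighbours were other features. The 58 members of at least 100 became 12 at a threshold of 3 and stayed between 39 and 69 otherwise. The median log2 ratio of Ssa4 to the other arrays over the members was -1.49, -0.89 with the offset and between -1.39 and -1.49 otherwise. The ratio to the lowest other array stayed above 2 in each of the alternatives that gave a value for 31 of the 58 members of at least 100 and 1 of the 53 others, and no gene changed direction. In the carbon group 14 or 15 of 15 genes stayed members except at a threshold of 3, which kept 6, and its median log2 ratio to Ssa1 stayed between -0.91 and -0.725 on Ssa2 and between -0.53 and -0.29 on Ssa3. With the offset 6 of 12 members were kept in the cell wall group, 3 of 14 in the cell cycle group, 3 of 7 in the ribosomal protein group, 2 of 7 in the retrotransposon and subtelomeric group, 0 of 5 in the mitochondrial group and 0 of 4 in the sterol and haem group. After subtraction of the neighbours these were 9, 9, 2, 2, 5 and 1. The offset fails any member whose lowest other value is 50 or less, so losses of low members with it follow in part from its size.

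List genes below 0.5 times Ssa1 in Ssa4 numbered 101 summed over the lists, and 70 among those of at least 100 on the Ssa1 array. Of all named features 43.2% were below 0.5 times, so these sums are only a description. The planned share of promoters with a motif was not calculated, since no promoter sequences were used here. No paired analysis was possible because each strain has 1 array. Low intensity limits the 53 members below 100 most, and for 1 array per strain no alternative replaces a replicate.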

Other observations

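For 6 members the name in the study's lists and the description beside it, or the R64 symbol of the locus, belong to different genes. They are YJL065C (DLS1), YBR162C (TOS1), YGR152C (RSR1), YLR399C (BDF1), YDR134C (CCW22) and YDL130W (RPP1B), and apart from TOS1, a wall protein gene by either reading, they were placed in no function group. YDR134C read 2732, 1564, 2945 and 649.6, YLR399C 389, 382, 384 and 183 and YGR152C 116, 175, 109 and 53.3. YJL065C read 98, 95.7, 94.7 and 31.4 and YDL130W 23.3, 17.6, 19.3 and 8.06. The same conflict was found for 23 of the 947 named features.

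The 1 member without a name read 6.81, 7.4, 7.89 and 2.31. A feature that lacks an Ssa4 value cannot be a member, and 6 features had a value on the Ssa1, Ssa2 and Ssa3 arrays only. Their highest value was 2.37, near the lower end of the scale.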
